A study of Schizosaccharomyces pombe with 8 samples.

Results

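Proteasome subunit genes of fission yeast, Schizosaccharomyces pombe, were followed through a short exposure to nitric oxide in cells with and without the transcription factor Pap1. A member was any gene whose symbol begins with rpt, rpn, pre, pup, pts or mts followed by digits and that had a probe set of its own on the array. The reference table holds 32 such genes, and 26 of them were measured among the 2896 S. pombe genes tested. Of the other 6, rpn501 and rpn502 share a probe set, and pre1, pre4, pre5 and pre9 were not analysed here. Each of the 26 members had 1 probe set. The members comprised 8 genes of the core particle and 18 of the regulatory particle, of which 6 were ATPases of the base, 5 other base subunits and 7 lid subunits. They lay on chromosome I (8 genes), chromosome II (11 genes) and chromosome III (7 genes).

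Wild type cells of strain 972h- and h- cells of strain AV25, in which pap1 is replaced by the kanMX6 marker (pap1::kanMX6), were grown in rich medium and moved to phosphate-buffered saline. Treated cells were shaken at 30 °C for 15 min with 3 mM detaNONOate, a compound that gives off nitric oxide, and control cells with the same concentration of donor that had already decomposed. This gave 4 groups of 2 arrays: wild type control, wild type treated, deletion control and deletion treated. All values below are deposited log2 expression values or differences between them, and the 2 arrays per group limit the precision. The labels call the arrays biological replicates but also say that control and treated cells were taken from the same flask, so the p-values measure the spread between these arrays, which may be partly technical. The deletion strain is represented by 1 strain, with no second isolate.

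The proteasome degrades proteins tagged with ubiquitin. Its core particle is a barrel of alpha rings, which gate the entrance, and beta rings, which hold the peptide-cutting sites. The regulatory particle recognises the substrate, removes its ubiquitin chain in the lid and unfolds it with a ring of ATPases in the base. In budding yeast the genes for these parts share an activator, Rpn4. Pap1 is a bZIP protein that activates genes against oxidants, and the design sets the response to nitric oxide with Pap1 beside the response without it.

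The pap1 probe set itself read from 9.90 to 10.11 (log2) in the 4 wild type arrays and from 2.14 to 2.35 in the 4 deletion arrays, below the background level of 3.41 set by probe sets of the other yeast on the array. Every member lay far above that level, with means over the 8 arrays from 7.86 to 11.27. Median values of the S. pombe genes lay between 7.85 and 7.96 on all arrays. One array property moved with the groups. The signal at the 3' end minus the signal at the 5' end of 7 control transcripts, taken as a median and called the 3' to 5' index here, was 1.34 ± 0.08 (log2, SD, n = 2) in wild type control, 3.35 ± 0.02 in wild type treated, 1.65 ± 0.01 in deletion control and 2.64 ± 0.12 in deletion treated arrays. It thus shifted by 2.01 with treatment in wild type and by 0.99 in the deletion.

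The first comparison, within wild type, asked how the subunit genes respond to nitric oxide when Pap1 is present. They mostly fell. In bulk RNA, less RNA per cell and fewer cells expressing a gene cannot be told apart. Of 26 members, 17 fell, 1 rose and 8 did not pass the test (limma, Benjamini-Hochberg adjusted p under 0.05 over all 2896 genes). The same test called 39.7% of all genes lower and 40.5% higher. A fall of at least 2-fold was seen for 6 members, rpt5, pre10, rpn11, pre3, pre8 and pup3, where 12.4% of all genes fell that far. The median change was -0.37 over the members and 0.02 over all genes. Both treated arrays lay below both control arrays for 23 members, an order found in 44% of all genes. With the S. pombe genes quantile normalized the split was 16 lower and 5 higher, the added rises being pre6, pup2, rpn10 and rpt6. The median was then -0.21 over the members and 0.095 over all genes. No share of all genes called is given beside these counts for that normalization. The call of rpt4 was lost there, and the falls of pts1 (-0.16), rpt2 (-0.16), rpn3 (-0.20), rpn9 (-0.22) and rpn2 (-0.33) still passed but were more than 1.5 times smaller than in the deposited values given below. The index shift of 2.01 accompanied these changes. In a fit with the index as a covariate and 1 treatment effect common to both strains, 5 members (pre3, pup3, rpn11, rpn9 and rpt3) were higher and 0 lower, where 17.6% of all genes were higher and 10.7% lower. That fit has no difference between the strains in their response, so the index takes up most of any such difference. The part of the index in the falls was otherwise not tested.

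**Figure D1:**
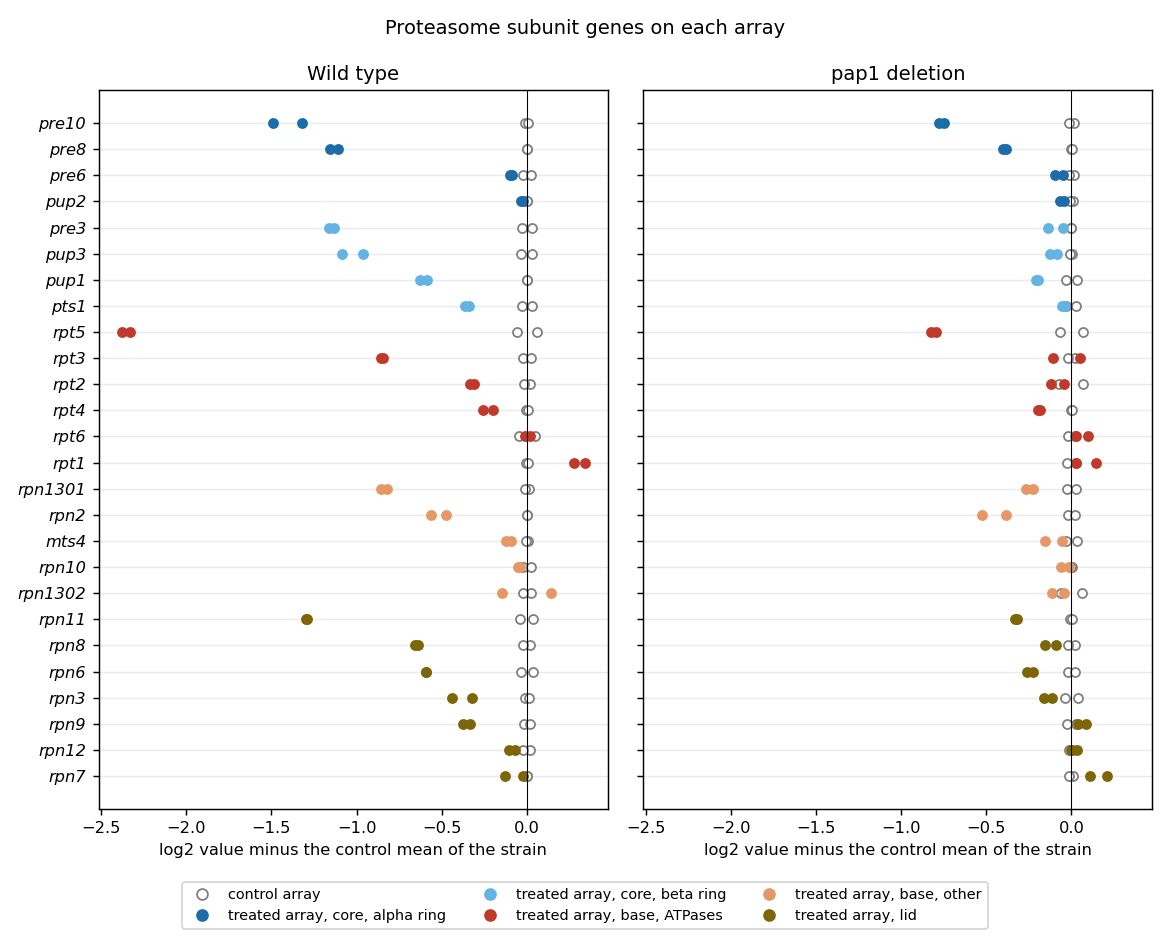
Log2 value of each proteasome gene on each array minus the control mean of its strain, for wild type (left) and the pap1 deletion (right); open circles are control arrays, filled circles treated arrays, coloured by sub-complex and ordered by the wild type change within each. In wild type the treated arrays of rpt5, pre10, rpn11, pre3, pre8 and pup3 lie about 1 log2 unit or more below control, and in the deletion the same genes lie closer to 0.

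The steepest change among the subunits was in rpt5, one of the 6 ATPases that unfold substrates. It read 8.97 and 8.86 in wild type control arrays and 6.54 and 6.59 in treated arrays. In the deletion it read 8.70 and 8.56 in control and 7.81 and 7.83 in treated arrays. The treated arrays were thus lower in both strains without overlap, and the wild type treated arrays were the lowest of all. The fall was 5.11-fold in wild type (-2.35 ± 0.06, log2, SE, adjusted p = 1.0e-07), the rank of 39 from the lowest of 2896 genes, and 1.75-fold in the deletion (-0.81 ± 0.06, adjusted p = 4.75e-05).

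The other 5 ATPase genes had smaller changes than rpt5 in both strains. In the assembly of the ring Rpt5 pairs with Rpt4, and rpt4 fell by 0.23 ± 0.04 in wild type (10.67 and 10.68 in control, 10.47 and 10.41 in treated arrays). That fall was 0.14 on the log2 scale after centring, and after quantile normalization the change was -0.08 and no longer passed (adjusted p = 0.111 in limma). In the deletion rpt4 fell by 0.19 ± 0.04 (10.61 and 10.61 against 10.41 and 10.42). The difference between the strains was 0.04 (95% interval -0.10 to 0.17) and did not pass. The gene rpt3, whose product with those of rpt2 and rpt5 docks into pockets of the alpha ring and opens its gate, read 9.82 and 9.87 in wild type control and 8.989 and 9.003 in wild type treated arrays. It fell by 0.85 ± 0.06 there, whereas its deletion arrays overlapped between control (9.82 and 9.78) and treated cells (9.69 and 9.85; -0.03 ± 0.06, adjusted p = 0.702).

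Of the remaining ATPases, rpt2 fell by 0.32 ± 0.06 in wild type, from 10.60 and 10.57 to 10.25 and 10.27. Its deletion arrays overlapped, with 10.76 and 10.62 in control and 10.57 and 10.65 in treated cells (-0.08 ± 0.06, adjusted p = 0.241). The gene rpt1 was the 1 member that rose in wild type, by 0.31 ± 0.05 (adjusted p = 0.00103), from 10.60 and 10.61 to 10.89 and 10.95. In the deletion it read 10.91 and 10.86 in control and 10.91 and 11.03 in treated arrays (0.09 ± 0.05, adjusted p = 0.194), so that deletion control arrays already stood near the wild type treated level. The gene rpt6 read between 10.22 and 10.39 on all 8 arrays and passed the test in neither strain (0.01 ± 0.05 in wild type, 0.06 ± 0.05 in the deletion), although it passed as a rise of 0.21 in wild type after quantile normalization.

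**Figure D2:**
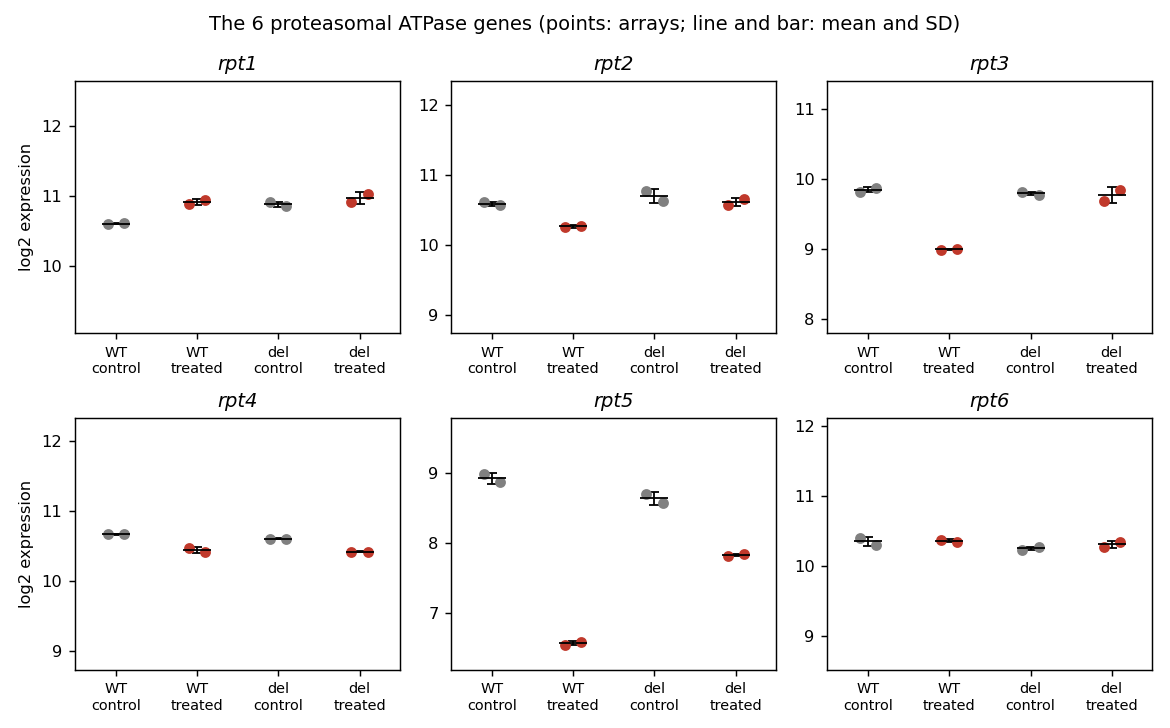
Log2 expression of the 6 ATPase genes of the regulatory particle in the 4 groups; points are arrays (grey control, red treated), horizontal lines group means and bars the SD of 2 arrays, with the same height of axis in every panel. Of the 6 genes rpt5 shows the deepest drop, rpt3 drops in wild type, and rpt1 stands higher in wild type treated than in wild type control arrays.

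All 4 measured beta subunit genes of the core fell in wild type cells, where 39.7% of all genes fell. Those of the 3 cutting sites, named here by their activity in budding yeast, fell by different amounts. The gene pre3, for the caspase-like site, read 11.04 and 10.98 in control and 9.88 and 9.85 in treated wild type arrays, a fall of 2.22-fold (-1.15 ± 0.05, adjusted p = 5.84e-07). The gene pup1, for the trypsin-like site, read 10.54 on both control arrays and 9.95 and 9.91 on treated arrays, a fall of 1.52-fold (-0.61 ± 0.04). The gene pts1, for the chymotrypsin-like site, read 10.50 and 10.44 in control and 10.11 and 10.13 in treated arrays, a fall of 1.28-fold (-0.35 ± 0.04). In each of the 3 genes the treated arrays lay below the control arrays without overlap, an order found in 44% of all genes. The fourth, pup3, which has no cutting site, fell by 1.02 ± 0.05.

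In the deletion, of these 4 genes only pup1 passed the test, with 10.47 and 10.41 in control and 10.25 and 10.23 in treated arrays (-0.20 ± 0.04, adjusted p = 0.00451). The gene pre3 read 10.96 on both control arrays and 10.82 and 10.91 on treated arrays (-0.09 ± 0.05, adjusted p = 0.121), and passed as a change of -0.12 (log2) after quantile normalization. The gene pts1 read 10.43 and 10.37 against 10.35 and 10.36 (-0.04 ± 0.04), and pup3 changed by -0.10 ± 0.05 (adjusted p = 0.125). For all 4 beta genes both treated arrays lay below both control arrays in the deletion as well, an order found in 36.5% of all genes there.

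The 4 measured alpha subunit genes split evenly between clear falls and changes that did not pass. The gene pre10 read 9.48 and 9.49 in wild type control and 7.996 and 8.165 in wild type treated arrays, a fall of 2.65-fold (-1.40 ± 0.06, adjusted p = 6.6e-07). In the deletion it read 9.40 and 9.37 in control and 8.61 and 8.64 in treated arrays, a fall of 1.70-fold (-0.76 ± 0.06). It was the gene with the steepest fall after rpt5 in both strains. The gene pre8 read 10.83 on both wild type control arrays and 9.72 and 9.68 on treated arrays, a fall of 2.19-fold (-1.13 ± 0.04). In the deletion pre8 read 10.54 and 10.55 in control and 10.16 and 10.14 in treated arrays (-0.39 ± 0.04, adjusted p = 0.000144). The other two, pre6 and pup2, did not pass: pre6 changed by -0.09 ± 0.04 in wild type and by -0.07 ± 0.04 in the deletion, and pup2 by -0.03 ± 0.04 and -0.05 ± 0.04. With another variance setting of limma, given below, pre6 passed as a fall in wild type. After quantile normalization pre6 (0.11) and pup2 (0.19) passed as rises there.

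Among the lid genes rpn11 moved most. It encodes the metalloprotease that cuts the ubiquitin chain from the substrate, and was formerly called pad1. It read 9.89 and 9.81 in wild type control and 8.56 and 8.55 in treated arrays, a fall of 2.45-fold (-1.29 ± 0.04, adjusted p = 2.32e-07). In the deletion it read 9.74 and 9.75 in control and 9.42 and 9.41 in treated arrays, a fall of 1.25-fold (-0.32 ± 0.04). Its partner in the lid, rpn8, fell by 0.65 ± 0.04 in wild type and by 0.12 ± 0.04 in the deletion.

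Of the other 5 lid genes, all for scaffold subunits of one structural family, rpn6 (-0.59 ± 0.04), rpn3 (-0.38 ± 0.05) and rpn9 (-0.35 ± 0.04) fell in wild type, and rpn12 (-0.09 ± 0.04) and rpn7 (-0.08 ± 0.05) did not pass. In the deletion rpn6 fell by 0.25 ± 0.04, and rpn3 (-0.14 ± 0.05, adjusted p = 0.0585), rpn9 (0.06 ± 0.04) and rpn12 (0.02 ± 0.04) did not pass. The gene rpn7 was the 1 member that rose in the deletion, from 10.52 and 10.49 to 10.61 and 10.72 (0.16 ± 0.05, adjusted p = 0.0361). That call was lost in 5 of the 8 fits that each left out 1 array, and the call of rpn8 in the deletion in 5 of 8 as well.

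The 5 base genes that are not ATPases encode scaffolds and ubiquitin receptors. The receptor gene rpn1301 fell in both strains, from 9.33 and 9.31 to 8.46 and 8.50 in wild type (-0.84 ± 0.04) and from 9.02 and 9.07 to 8.82 and 8.78 in the deletion (-0.24 ± 0.04). Its paralogue rpn1302 did not pass in either, with wild type arrays that overlapped (7.80 and 7.75 in control, 7.63 and 7.92 in treated cells; adjusted p = 0.991). The scaffold gene rpn2 fell in both strains, from 10.50 on both arrays to 10.02 and 9.94 in wild type (-0.52 ± 0.06) and from 10.39 and 10.43 to 9.88 and 10.02 in the deletion (-0.45 ± 0.06). Its difference in response was 0.06 (95% interval -0.13 to 0.26). The receptor genes rpn10 (-0.05 ± 0.04 in wild type, -0.04 ± 0.04 in the deletion) and mts4, the gene of Rpn1 (-0.11 ± 0.05 in each strain), did not pass. After quantile normalization rpn10 passed as a rise in wild type (0.17). With the other variance setting of limma mts4 passed as a fall in each strain.

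Set against each other, the core and the regulatory particle overlapped widely in their changes. In wild type 6 of 8 core genes fell and 0 rose (median -0.81, range -1.40 to -0.03). The regulatory particle had 11 of 18 genes lower and 1 higher (median -0.34, range -2.35 to 0.31). Of all genes 39.7% fell and 40.5% rose there (median 0.02). A fall of at least 2-fold was seen for 4 core and 2 regulatory genes, where 12.4% of all genes fell that far. By sub-complex the wild type medians were -0.61 for the alpha ring, -0.81 for the beta ring, -0.28 for the ATPases, -0.11 for the other base genes and -0.38 for the lid. In the deletion the core and regulatory medians lay close together at -0.10 and -0.09, with 3 of 8 and 7 of 18 genes lower. Of all genes 26.9% fell in the deletion (median 0.05). With arrays centred on the median gene the wild type medians were -0.73 and -0.25, and after quantile normalization -0.64 and -0.18, so the regulatory value moved by more than 1.5 times there. With the index as a covariate they stood at 0.20 and 0.09. No p is given for the 2 particles, since the genes were grouped with earlier results of these arrays known.

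**Figure D3:**
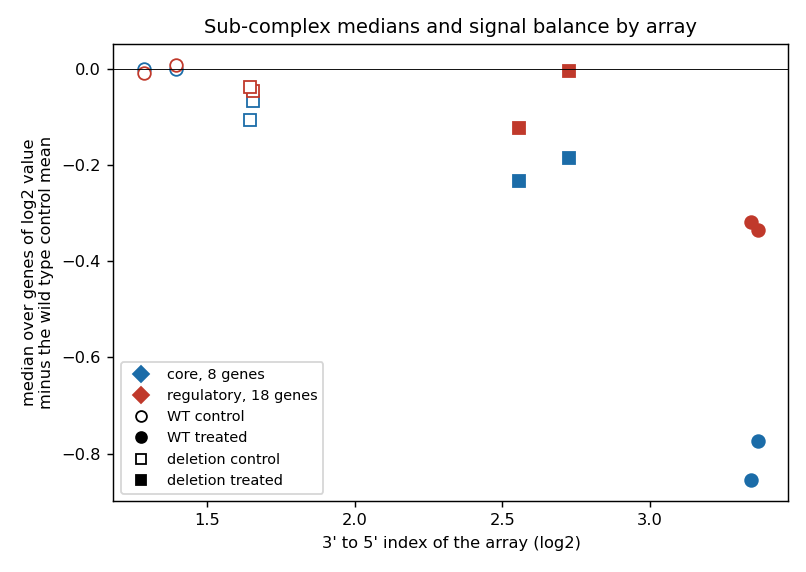
Median over the 8 core genes (blue) and the 18 regulatory genes (red) of the log2 value minus the wild type control mean, plotted for each of the 8 arrays against the 3' to 5' index of that array; circles are wild type, squares the deletion, and filled symbols treated. The wild type treated arrays have the highest index, 3.34 and 3.36, and the lowest core medians, -0.85 and -0.77.

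In cells lacking pap1 the comparison of treated with control cells showed fewer and smaller changes in these genes. Of 26 members 10 fell, 1 rose and 15 did not pass, where 26.9% of all genes fell and 35.5% rose in limma. The median was -0.10 over the members and 0.05 over all genes. No member fell by 2-fold or more in the deletion, where 2.35% of all genes fell that far. The 5 largest changes past the threshold were those of rpt5, pre10, rpn2, pre8 and rpn11. The index shift was 0.99 in these arrays. In 22 of 26 members the change was smaller in size in the deletion than in wild type, as it was in 2177 of all 2896 genes. Across the 26 members the changes in the 2 strains had a Pearson correlation of 0.80 and a Spearman correlation of 0.72, given as a description since the genes share their arrays. Over all genes these were 0.79 and 0.76.

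**Figure D4:**
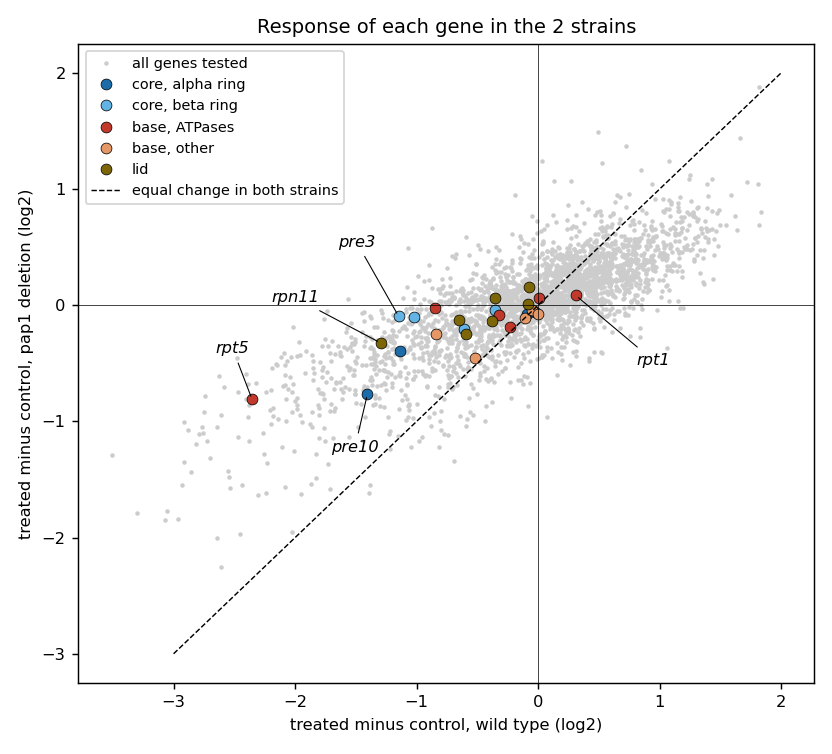
Treated minus control (log2) in wild type (x axis) against the same in the pap1 deletion (y axis) for all 2896 genes (grey) and the 26 proteasome genes (coloured by sub-complex); the dashed line marks equal change. Most coloured points with a fall in wild type lie above the dashed line, and rpt5 at -2.35 and -0.81 is the lowest of them on both axes.

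The difference between the strains in response was tested as an interaction, the change in the deletion minus the change in wild type. It passed the limma test for 17 of 26 members, 16 with a value above 0 and 1 below, where 33.9% of all genes lay above and 25.1% below. The largest were those of rpt5 (1.54 ± 0.09, adjusted p = 2.49e-05), pre3 (1.05 ± 0.07, adjusted p = 3.68e-05) and rpn11 (0.97 ± 0.06, adjusted p = 3.35e-05). The value below 0 was that of rpt1 (-0.22 ± 0.07, adjusted p = 0.0354), the gene that rose in wild type. All 4 beta ring genes, 2 of 4 alpha ring genes, 6 of 7 lid genes, 4 of 6 ATPases and 1 of 5 other base genes passed. The median was 0.28 over the members and 0.05 over all genes, 0.52 for the core and 0.24 for the regulatory particle. After quantile normalization 13 were above and 4 below, and those below other than rpt1 had not passed as deposited. The median was then 0.13 over the members and -0.047 over all genes. No share of all genes called is given beside these counts for that normalization. The calls of rpn3 (0.16 and 0.09), rpn7 (0.15 and 0.10) and rpt2 (0.16 and 0.06) were lost both after centring and after quantile normalization, in that order. Those of pup1 (0.26), rpn9 (0.26), rpn6 (0.17), pts1 (0.17) and rpt1 (-0.36) passed after quantile normalization with sizes that had moved by over 1.5 times. The index shift was 1.02 smaller in the deletion, and its part in the interaction was not tested.

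**Figure D5:**
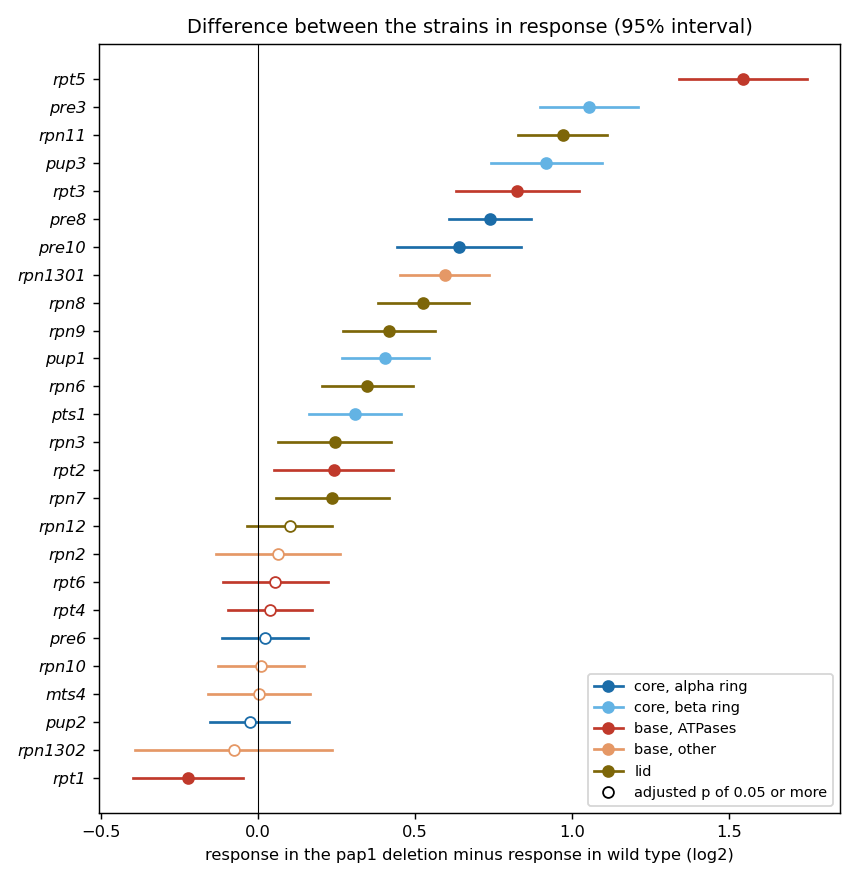
Change in the pap1 deletion minus change in wild type (log2) for each of the 26 proteasome genes, with 95% intervals from limma, coloured by sub-complex; filled points passed an adjusted p under 0.05, open points did not. The values run from -0.22 for rpt1 to 1.54 for rpt5, and 16 filled points lie above 0.

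The strains themselves were compared first with decomposed donor, which asks what loss of pap1 does without active nitric oxide. Differences were small. Of 26 members 3 were lower and 1 higher in the deletion, where 9.15% of all genes were lower and 8.22% higher. The lower genes were pre8 (-0.29 ± 0.04, adjusted p = 0.00559), rpt5 (-0.28 ± 0.06, adjusted p = 0.0232) and rpn1301 (-0.27 ± 0.04, adjusted p = 0.00852). The higher gene was rpt1 (0.28 ± 0.05, adjusted p = 0.0158). In each of these 4 genes the deletion arrays did not overlap those of wild type; over all genes both deletion arrays lay below both wild type arrays in 32.2% and above them in 37.3%. Only pre8 passed in all 8 fits that left out 1 array; the count of members called fell to 1 without either wild type control array or deletion control array 1, and to 2 without deletion control array 2. The index was higher by 0.31 in deletion than in wild type control arrays.

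With active donor 17 of 26 members were higher in the deletion and 0 lower, where 39.3% of all genes were higher and 26.5% lower. The comparison shares the wild type treated arrays with the first comparison and is not independent of it. The largest differences were those of rpt5 (1.26 ± 0.06, adjusted p = 5.84e-06), pre3 (1.00 ± 0.05, adjusted p = 5.84e-06) and rpn11 (0.86 ± 0.04, adjusted p = 5.99e-06). In the deposited values all 7 lid genes and all 4 beta ring genes were higher, as were 2 of 4 alpha ring genes, 3 of 6 ATPases and 1 of 5 other base genes. After quantile normalization 13 were higher and 5 lower, and those 5 had not passed as deposited. The median was then 0.12 over the members and -0.029 over all genes. No share of all genes called is given beside these counts for that normalization. The calls lost there were those of the lid genes rpn3 (0.07), rpn7 (0.04) and rpn12 (-0.04) and of the beta ring gene pts1 (0.09), and rpn7 (0.12) and rpn12 (0.05) were also lost after centring. The values of pup1 (0.15), rpn6 (0.17), rpt2 (0.18) and rpn8 (0.24) passed after quantile normalization but were more than 1.5 times smaller. The gene rpn12, with an adjusted p of 0.0491, passed in 0 of the 8 fits that left out 1 array. The index was lower by 0.71 in these deletion arrays than in the wild type ones.

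Genes that work with the proteasome but fall outside the naming rule were read from a separate list of 17, of which 13 had a probe set. Of these, 7 fell in wild type, 4 rose and 2 missed the threshold (median change -0.20), where 39.7% of all genes fell and 40.5% rose. The 4 largest changes were those of npl4 (-1.05 ± 0.05) and ufd1 (0.40 ± 0.05), partners of the Cdc48 unfoldase, dss1, a further lid subunit (0.95 ± 0.19), and mud1, which carries ubiquitin-tagged proteins (-0.63 ± 0.04). Levels of dss1 were 7.93 on both wild type control arrays and 8.92 and 8.84 on treated arrays, a rise without overlap. That order was found in 1336 of all 2896 genes. In the deletion the dss1 arrays overlapped, with 7.74 and 8.28 in control and 8.56 and 8.14 in treated cells. The change there was 0.34 ± 0.19 and did not pass (adjusted p = 0.150 in limma). In the deletion 6 of the 13 fell, 2 rose and 5 missed the threshold (median change -0.13), where 26.9% of all genes fell and 35.5% rose. The 4 largest past the threshold there were the polyubiquitin gene ubi4 (-0.45 ± 0.05), the shuttle receptor gene rhp23 (0.39 ± 0.05), npl4 (-0.36 ± 0.05) and ubp6, a deubiquitinase bound to the proteasome (-0.25 ± 0.06). Polyubiquitin repeats also occur in other ubiquitin genes, so the probe set of ubi4 may read several transcripts.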

How the data were processed

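The 8 arrays carried biotin-labelled RNA on Affymetrix Yeast_2 arrays. Values were deposited as 1 log2 number per probe set and array. The submitters' processing notes name RMA, of a version not given in the sources used here. They were used without further scaling. Groups came from the sample titles. Of 10928 probe sets, 2914 had a single S. pombe gene, named through gene IDs with 113 symbols updated. The probe set with the highest mean was kept per gene, which left 2896 genes. Background was the 95th percentile of S. cerevisiae probe set means.

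One limma fit (limma 3.58.1, R 4.3.3) over all genes and arrays had 1 mean per group, 4 residual and 3.07 prior degrees of freedom. A gene was called where its adjusted p (Benjamini-Hochberg) was under 0.05, whatever its fold unless stated. Errors marked SE are limma's. The steps were tested on simulated data for treated against control in wild type. There 61.2% of genes with a log2 effect of 0.3 were recovered, 94% at 0.6 and 100% at 1. Alternatives were centring, quantile normalization, a background filter, a trended robust variance, averaged probe sets, each array left out, a replicate block and the index as a covariate.

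All members may be named. Values per array are given for the 5 largest changes per treatment contrast, the 3 largest per other contrast, genes that rose, the ATPases and the catalytic subunits, and in part for others. Of the outside list, the 4 largest changes past the threshold per treatment contrast and dss1 are named. The listed name pus1, an older name of rpn10, matched another gene and was dropped after values had been seen. The members and lists were chosen with earlier results of these data known. Same-numbered arrays of different groups did not deviate together (correlations from -0.26 to 0.06), so the replicate numbers were not taken as pairs.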

Additional observations from a re-analysis of the deposited data

Results flagged for a closer look

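For 17 members the response differed between the strains by the interaction test (limma, adjusted p under 0.05), which is the reason they are listed here. Of all 2896 genes 59.1% passed the same test, 33.9% with a value above 0 and 25.1% below. The values are the change in the deletion minus the change in wild type, on the log2 scale. In the ATPase genes they were 1.54 for rpt5, 0.82 for rpt3, 0.24 for rpt2 and -0.22 for rpt1. In the beta ring they were 1.05 for pre3, 0.92 for pup3, 0.41 for pup1 and 0.31 for pts1, and in the alpha ring 0.74 for pre8 and 0.64 for pre10. In the lid they were 0.97 for rpn11, 0.53 for rpn8, 0.42 for rpn9, 0.35 for rpn6, 0.24 for rpn3 and 0.24 for rpn7. Of the other base genes rpn1301 stood at 0.59. The calls of rpn7, rpt1 and rpt2 passed in 2 of the 8 fits that left out 1 array, and that of rpn3 in 3 of 8. The calls of rpn3, rpn7 and rpt2 were also lost after centring and after quantile normalization (to 0.094, 0.099 and 0.064 in the latter), and that of rpt2 with the replicate number as a block. The other 13 calls passed in all 8 of the fits that left out 1 array.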

How the results depend on the processing

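The number of members called lay within 1.5 times the reported one under every alternative that kept all arrays, except with the 3' to 5' index as a covariate, which gave 5 in place of 18 in wild type and of 11 in the deletion. Leaving out each array in turn gave 18 calls in wild type each time, 9 to 12 in the deletion, 13 to 16 for the difference in response, 1 to 5 between control groups and 14 to 17 between treated groups. As deposited, 80.2% of all genes were called in wild type, 62.4% in the deletion and 59.1% for the difference in response. Between control groups 17.4% were called and between treated groups 65.8%. With the index as a covariate 28.3% of all genes were called. No share of all genes is given for the other alternatives in this section. The core median in wild type was -0.73 after centring, -0.64 after quantile normalization and -0.85 to -0.77 with an array left out. The regulatory median there was -0.25, -0.18 and -0.34 to -0.32. In the deletion the array left out gave -0.13 to -0.075 for the core and -0.14 to -0.074 for the regulatory particle. The index fit turned both medians to 0.20 and 0.087 in each strain.

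That fit gives 1 value for both strains, whose sign was opposite to that reported in at least 1 strain for pre3 (0.84), pup3 (0.71), rpt3 (0.70), rpt5 (0.58), rpn11 (0.55), rpn9 (0.44), rpn7 (0.35), rpn8 (0.34), rpn1301 (0.31), pre8 (0.29), pts1 (0.22), pup1 (0.17), rpt2 (0.11), rpn12 (0.092), rpn3 (0.082), rpn6 (0.072) and rpt1 (-0.14). It allows no difference in response between the strains, so the index takes up most of any such difference. The turned signs thus cannot be told apart from the difference in response given above, and their cause was otherwise not tested.

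All other changes of sign were in values that did not pass as reported, apart from rpn12 between treated groups. Centring turned pup2 (0.058), rpn10 (0.038), rpn1302 (0.084) and rpn7 (0.0070) in wild type. Quantile normalization turned mts4 (0.074), pre6 (0.11), pup2 (0.19), rpn10 (0.17), rpn12 (0.053), rpn1302 (0.052) and rpn7 (0.060) there, pts1 (0.0079), rpn10 (0.039) and rpt3 (0.012) in the deletion, and rpn12 (-0.037) between treated groups. The median of all genes in wild type was 0.02 as deposited, 0.10 after centring and 0.095 after quantile normalization. With an array left out, the sign varied for rpt3 (-0.11 to 0.053) and rpn12 (-0.0016 to 0.032) in the deletion, and for rpn1302 (-0.15 to 0.14) and rpt6 (-0.041 to 0.053) in wild type.

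With the replicate number as a block, 18 members were called in wild type, 11 in the deletion, 16 for the difference in response, 4 between control and 16 between treated groups. Crossing the numbers in the deletion gave 12 calls there, an alternative chosen after seeing the data. No share of all genes called is given beside these counts. With a trended robust variance mts4, pre6 and rpn12 also passed as falls in wild type, and mts4, pup3 and rpn3 in the deletion.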

Other observations

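The probe set shared by rpn501 and rpn502, which encode the same lid subunit, had wild type values of 11.67 and 11.65 with decomposed and of 11.60 and 11.62 with active donor. Its deletion values were 11.65 and 11.69, then 11.73 and 11.74. It cannot tell the 2 genes apart and was not tested.

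The wild type changes of members that lie close together on a chromosome were as follows. On chromosome II, rpn1301 (-0.84) and rpn12 (-0.09) have 2 protein-coding genes between them, and pre6 (-0.09) and rpn7 (-0.08) have 8. On chromosome III, rpn8 (-0.65) and rpt4 (-0.23) have 5 between them. Across the 26 members the wild type change had a Spearman correlation of -0.20 with the length of the gene in the reference table and of 0.40 with the mean level over the 8 arrays, beside -0.10 and -0.098 over all 2896 genes. These are descriptions of genes that share their arrays. The mean level also includes the wild type arrays from which the change was taken, so level and change are not independent.

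The array also holds probe sets for 29 S. cerevisiae genes whose names follow the same rule. Their means over the 8 arrays lay between 1.32 and 3.65 with a median of 2.06, and 2 of them, PRE4 (3.65) and RPT6 (3.59), lay above the background level of 3.41. The S. pombe members lay between 7.86 and 11.27.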
